A study of Mus musculus with 18 samples.

Results

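The stress keratins Krt6a, Krt6b, Krt16, Krt17 and Krt75 were followed through sorted epidermal cells of mice with a psoriasis-like disease. The genes were taken by symbol, 5 of the 23951 genes of the deposited expression table, by a rule that uses no measured value, with earlier results of these data known. Bulge hair follicle stem cells (HF-SCs) and basal keratinocytes (b-KCs) of the interfollicular epidermis were sorted from ear skin at day 7 after induction, giving 18 libraries in 6 groups of 3 mice. DKO* mice carried floxed alleles of both JunB and c-Jun (JunB f/f c-Jun f/f) with a K5-Cre-ERT transgene and the mT/mG reporter, in which a cell turns from Tomato to GFP after Cre has acted. From each DKO* mouse, mutant GFP and non-mutant Tomato (Tom) cells were collected separately for both cell types. Control (Co) mice carried K5-Cre-ERT and mT/mG with wild-type or heterozygous floxed alleles, and their cells are not split by colour in the sample labels. All mice were about 8 weeks old, of mixed background and both sexes, and received 4 daily injections of 2 mg tamoxifen. HF-SCs were gated as CD45- CD49f high CD34+ cells and b-KCs as CD45- CD49f high CD34- cells. Cre was driven by the K5 promoter, so Tom cells include K5-positive cells that escaped recombination as well as cells in which the promoter is silent. Co libraries came from mice 810, 825 and 828, and all 4 DKO* populations came from mice 814, 815 and 817.

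Keratins build the intermediate filaments of epithelial cells, and each filament needs a type I and a type II chain. Krt6a and Krt6b encode type II chains that pair with the type I chains of Krt16 and Krt17, and this set is known for its presence in hair follicles and its scarcity in resting interfollicular epidermis. It is switched on in keratinocytes after wounding and in psoriasis, where it serves as a marker of activated, fast-growing epidermis. Krt75 encodes a related type II chain of the companion layer of the hair follicle. The genes deleted here, Jun and Junb, encode subunits of the transcription factor AP-1.

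The 5 genes lie in both mouse keratin clusters (NCBIM37, all on the minus strand). Krt16 (chr11:100107405-100110276) and Krt17 (chr11:100117531-100122343) are neighbours in the type I cluster, with 7254 bases and no other coding gene between them. Krt6b (chr15:101506465-101510720) and Krt6a (chr15:101520363-101524738) are neighbours in the type II cluster, 9642 bases apart, and Krt75 (chr15:101393776-101404335) lies 102129 bases from Krt6b. The coding sequences of Krt6a and Krt6b were identical at 1625 of 1662 aligned bases (97.8%). Krt16 and Krt17 were identical at 77.7% of aligned coding bases, and Krt75 at 75.0% with Krt6a.

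This likeness bears on how well the reads separate the genes, since reads were 51 bases long. The stretch below, in exon 1 of Krt6a (chr15:101524481-101524531) and of Krt6b (chr15:101510456-101510506), reads the same in both genes and lies inside an identical run of 280 coding bases, so a read from it cannot be assigned. The pair after it, from exon 4 of Krt6a (chr15:101522915-101522965) and of Krt6b (chr15:101508734-101508784), is the coding window with the most differences, and its 10 differing bases are in capitals. The last stretch is shared by exon 1 of Krt16 (chr11:100109851-100109901) and exon 1 of Krt14 (chr11:100068392-100068442), the major type I keratin of basal cells. It is shown because Krt14 is far more abundant than Krt16 in control cells.
Krt6a and Krt6b, identical: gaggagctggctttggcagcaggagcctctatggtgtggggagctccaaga
Krt6a, most different: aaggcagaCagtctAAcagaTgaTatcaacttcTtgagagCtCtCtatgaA
Krt6b, most different: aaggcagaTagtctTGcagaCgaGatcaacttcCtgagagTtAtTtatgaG
Krt16 and Krt14, identical: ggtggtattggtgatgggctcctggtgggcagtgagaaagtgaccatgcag
Of all 51-base windows in the longest transcripts, 43.7% of those of Krt6a occurred in Krt6b and 44.3% of those of Krt6b in Krt6a. Krt5, which had 2299 to 7318 FPKM, also held 6.71% of the windows of Krt6a and 2.16% of those of Krt6b. The gene model Gm5414 held 6.2% of the windows of Krt6b and 3.45% of those of Krt6a. For Krt16, 11.6% of the windows occurred in Krt14. For Krt17 the share in Krt14 was 3.4%, and for Krt75 none of 3216 windows was shared with another coding gene. These are shares of sequence, not of reads, and Krt14 stood at 2085 to 2479 FPKM in HF-SC Co and 9817 to 10560 in b-KC Co, far above Krt16 and Krt17 there. How many reads of Krt5 and Krt14 were counted for the stress keratins was not tested.

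Expression was given as FPKM, fragments per kilobase of transcript scaled to the number of mapped reads, so levels of different genes can be compared. None of the 90 values of the 5 genes was listed at exactly 0, and every library entered every mean. Differences were tested with limma on log2(FPKM + 1) over 12751 genes, and a gene was called at a Benjamini-Hochberg adjusted p under 0.01 and an absolute log2 difference of at least 2. Steps between the low values put the depth of the libraries at 16507900 to 26274800 reads. Jun had 29.6 to 88.4 FPKM in the 6 GFP libraries, 163 to 614 in the 6 Tom libraries and 835 to 1086 in the 6 Co libraries. Junb fell against Co by 2.88 on the log2 scale in GFP cells of the bulge and by 3.69 in basal GFP cells, and its log2 differences of -0.56 and -1.27 in the matching Tom cells were not called. The sort was visible in Cd34, with 161 to 889 FPKM in HF-SC libraries and 0.341 to 2.53 in b-KC libraries. Summed FPKM of 7 endothelial markers was 504 to 1491 in HF-SC Tom, 50.8 to 86.0 in HF-SC Co, 1.04 to 24.8 in HF-SC GFP and at most 4.76 in b-KC libraries. For 6 fibroblast markers the sum was 45.9 to 95.5 in HF-SC Co, 19.4 to 120.5 in HF-SC GFP, 13.9 to 114.9 in HF-SC Tom and at most 6.16 in b-KC libraries. Of the 7 leukocyte markers 4 were tested and Cd74 alone of these was called, higher in all 4 DKO* populations, while Ptprc, which encodes the CD45 used to exclude leukocytes, reached at most 0.946 FPKM. The part of these cells in the keratin values was not tested.

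In control skin the 2 cell types carried different stress keratins. Krt17 was the most abundant member in both, at 219, 227 and 232 FPKM in HF-SC Co and 421, 282 and 284 in b-KC Co. The HF-SC Co libraries all lay below the b-KC Co libraries for Krt17, but the log2 difference of -0.51 ± 0.47 (SE, n = 3 per group) did not pass the test (adjusted p = 0.385, 95% interval -1.52 to 0.49). Krt6a, the type II chain, reached 188, 146 and 119 FPKM in HF-SC Co but 81.3, 14.9 and 19.5 in b-KC Co. Every HF-SC library was above every b-KC library, and the log2 difference was 2.32 ± 0.66 (adjusted p = 0.00815). Krt16 ran the other way, with 13.5, 8.86 and 7.40 FPKM in HF-SC Co and 132, 53.6 and 58.2 in b-KC Co. The ranges did not meet, and Krt16 was lower in HF-SCs by a log2 difference of -2.83 ± 0.74 (adjusted p = 0.00465).
Krt6b was nearly silent in control HF-SCs, at 1.22, 0.263 and 1.45 FPKM, and variable in control b-KCs, at 22.6, 0.928 and 8.52 FPKM. The ranges overlapped and the log2 difference of -1.99 ± 0.76 was not called (adjusted p = 0.0383). It ranged from -2.68 to -1.28 when 1 mouse was left out. Krt75 stood at 6.43, 8.11 and 6.83 FPKM in HF-SC Co against 0.171, 0.162 and 0.135 in b-KC Co, where the lowest of these values rests on about 9 reads. It was higher in HF-SCs by 2.81 ± 0.16 on the log2 scale (adjusted p = 2.37e-09), or by 4.81 with a pseudocount of 0.1, and HF-SC Co was the group with its highest level. In all, 3 of the 5 genes were called between the control cell types, where 5.65% of all genes tested were called.
The calls of Krt6a and Krt16 between the control cell types were lost when certain mice were left out, while the log2 differences stayed between 1.87 and 2.88 for Krt6a and between -3.00 and -2.64 for Krt16. Krt6a lost its call without mouse 825 (log2 difference 1.87, adjusted p = 0.0864), without mouse 828 (2.21, adjusted p = 0.0529) and, since all groups share 1 estimate of the spread, without DKO* mouse 814 or 815 (adjusted p = 0.0138 and 0.0205). Krt16 lost its call without mouse 810 (-2.64, adjusted p = 0.036), 825 (-3.00, adjusted p = 0.0244) or 828 (-2.83, adjusted p = 0.0313). With no filter on low values neither was called (adjusted p = 0.027 for Krt6a and 0.0171 for Krt16). Mouse 810 had the highest b-KC Co values of Krt6a, Krt6b, Krt16 and Krt17, and its summed FPKM of 7 suprabasal markers was also the highest of the 3, at 8692 against 6988 to 7060. The part of suprabasal cells in these values was not tested.

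**Figure D1:**
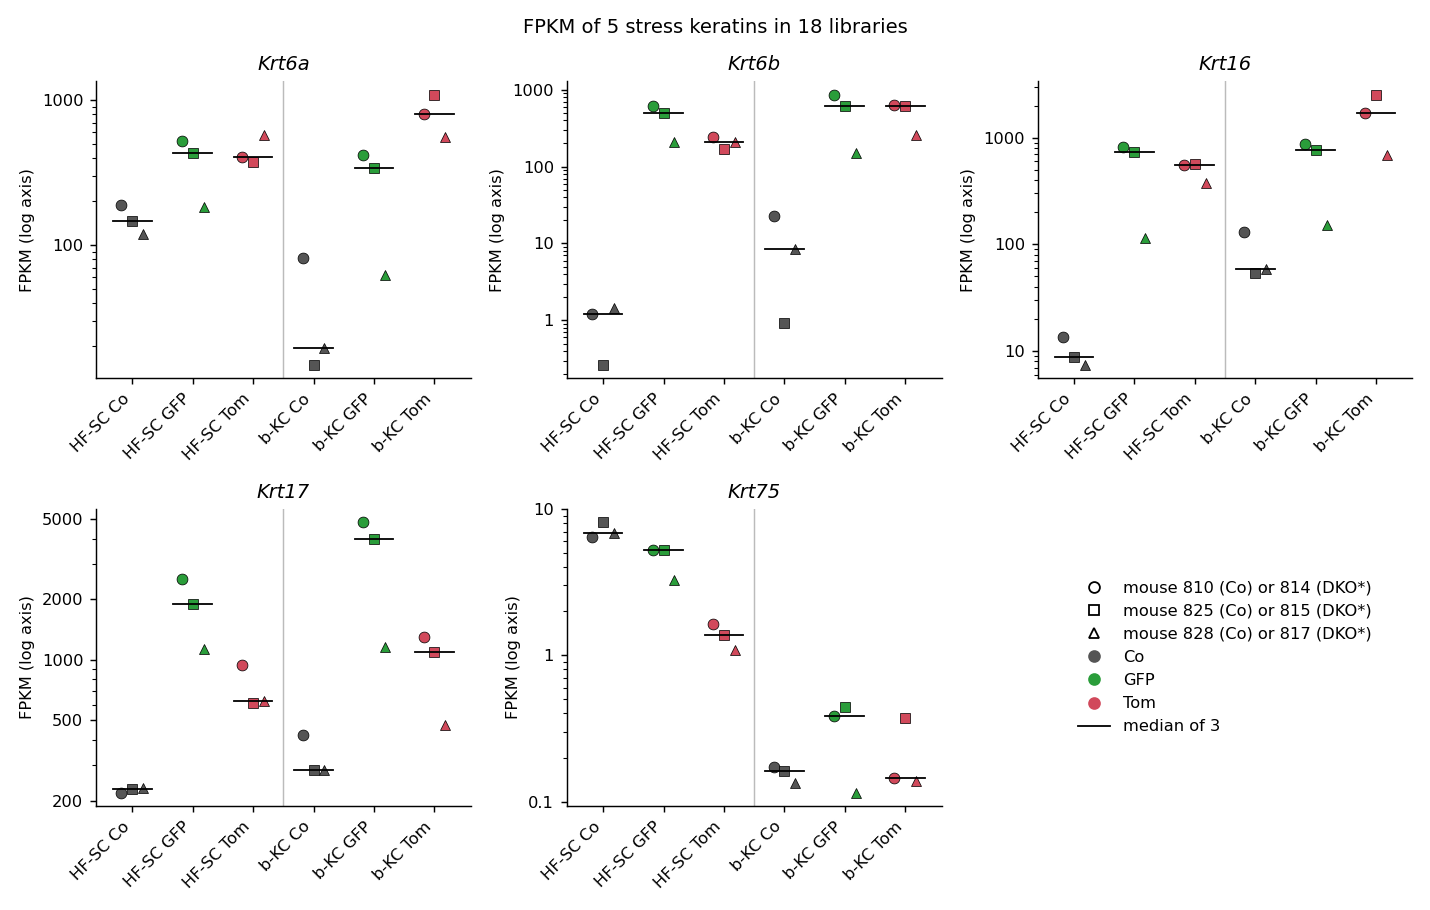
FPKM of each stress keratin on a log axis in the 18 libraries, with 3 mice per group as separate symbols and a line at the median. Krt6b, Krt16 and Krt17 lie above the Co group of the same cell type in all 4 DKO* groups, Krt17 has its highest medians in the GFP groups, and Krt75 is lower in HF-SC Tom (1.08 to 1.63) than in HF-SC Co (6.43 to 8.11) and below 0.5 in b-KCs.

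The type II chain Krt6b showed the largest difference between control and DKO* cells of the 5 genes, in each of the 4 populations. Its FPKM in HF-SC GFP was 616, 504 and 210.0 for mice 814, 815 and 817, an order of mice kept in the values that follow, and 239.9, 170.3 and 207 for HF-SC Tom. All 6 libraries were far above the highest HF-SC Co library, which had 1.45. Against Co, Krt6b rose by 7.73 ± 0.76 on the log2 scale in HF-SC GFP (adjusted p = 1.58e-06) and by 6.75 ± 0.76 in HF-SC Tom (adjusted p = 5.04e-06). With a pseudocount of 0.1 in place of 1 these log2 differences were 8.80 and 7.81, so their size depends on the treatment of the low Co values.
For b-KCs the GFP libraries had 866, 622 and 149 FPKM and the Tom libraries 625, 609 and 259. No DKO* library overlapped with the b-KC Co range of 0.928 to 22.6. The rise was 5.84 ± 0.76 for the GFP cells (adjusted p = 5.29e-05) and 5.94 ± 0.76 for the Tom cells (adjusted p = 2.56e-05). These log2 differences were 4.85 and 4.95 without mouse 825 and 6.66 and 6.76 without mouse 810, and in GFP 6.60 without mouse 817, and all of them were called. In bulk libraries a change in the number of expressing cells and a change in the RNA per cell cannot be told apart, here and for every difference that follows.

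Krt6a, its near-identical neighbour, was already expressed in control HF-SCs. It reached 522, 435 and 182 FPKM among the GFP cells of the bulge and 404, 373 and 579 among the Tom cells. The HF-SC GFP library of mouse 817 lay within the control range of 119 to 188, whereas all HF-SC Tom libraries lay above it. The log2 difference from Co was 1.22 ± 0.66 in HF-SC GFP (adjusted p = 0.158, 95% interval -0.19 to 2.62) and 1.57 ± 0.66 in HF-SC Tom (adjusted p = 0.0643), and neither was called.
In b-KCs Krt6a had 418, 340.2 and 62.5 FPKM in GFP and 801, 1094 and 559.5 FPKM in Tom. The GFP library of mouse 817 again fell within the b-KC Co range, which mouse 810 stretched to 81.3, while the Tom libraries were all above 500. Krt6a rose by 4.72 ± 0.66 in b-KC Tom (adjusted p = 5.35e-05) and by 2.80 ± 0.66 in b-KC GFP (adjusted p = 0.00384). The call in b-KC GFP was lost without mouse 814 (log2 difference 2.30, adjusted p = 0.0414), 815 (2.45, adjusted p = 0.0507), 825 (2.34, adjusted p = 0.0312) or 828 (2.53, adjusted p = 0.0285), when only b-KC GFP and b-KC Co were fitted (adjusted p = 0.0398) and with no filter on low values (adjusted p = 0.0154). Without mouse 810 the log2 difference was 3.53 in GFP and 5.45 in Tom, and without mouse 817 it was 3.66 in GFP.

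The type I chain Krt16 was called in the same HF-SC comparisons as Krt6b. Its GFP libraries had 822, 732 and 114 FPKM and its Tom libraries 558, 571 and 372. The lowest DKO* library, HF-SC GFP of mouse 817, was still above the highest HF-SC Co library at 13.5. The rise over Co was 5.27 ± 0.74 for GFP (adjusted p = 4.90e-05) and 5.53 ± 0.74 for Tom (adjusted p = 2.41e-05), and without mouse 817 it was 6.19 for GFP.
In b-KCs Krt16 had 879, 763 and 151 FPKM in GFP and 1692, 2534 and 691 FPKM in Tom. The b-KC GFP library of mouse 817 lay just above the highest b-KC Co library at 132, and the Tom libraries lay well clear of it. Krt16 rose by 4.25 ± 0.74 in b-KC Tom (adjusted p = 3.09e-04), where it reached its highest median of any group. The log2 difference of 2.63 ± 0.74 in b-KC GFP narrowly missed the threshold (adjusted p = 0.0105). Taking the mouse as a random block, the same log2 difference of 2.63 passed at an adjusted p of 0.00324, as it did without mouse 817 (3.44, adjusted p = 2.10e-06). Krt14, which shares sequence with Krt16, was listed at 0 FPKM for mouse 817 in b-KC GFP and for mice 814 and 817 in b-KC Tom, beside 6838 to 11448 FPKM in the other b-KC libraries. The Krt16 values of these 3 libraries were 151, 1692 and 691 FPKM, and none was the highest of its group.

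Krt17, a type I chain made in many follicle cells, had its highest levels in the mutant cells. In HF-SCs the GFP libraries had 2522, 1902 and 1127 FPKM and the Tom libraries 945, 609.6 and 622. All GFP libraries were above all Tom libraries, and these were above all Co libraries. Krt17 rose by 2.95 ± 0.47 in HF-SC GFP (adjusted p = 1.74e-04), and its difference of 1.65 ± 0.47 in HF-SC Tom was not called (adjusted p = 0.0107).
In b-KCs Krt17 had 4831, 4000.2 and 1159 FPKM in GFP and 1305, 1089 and 474 FPKM in Tom. The GFP library of mouse 817 fell within the Tom range, and every DKO* library was above the Co range of 282 to 421. Krt17 rose by 3.12 ± 0.47 in b-KC GFP (adjusted p = 1.81e-04), or by 3.76 without mouse 817, while the difference of 1.44 ± 0.47 in b-KC Tom was not called (adjusted p = 0.0216). Krt5, the constitutive type II keratin of basal cells, had 2999, 2753 and 5473 FPKM in b-KC GFP. Krt17 was thus above Krt5 in mice 814 and 815 and far below it in mouse 817.

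Krt75 did not share the rise. In HF-SCs it had 5.21, 5.27 and 3.26 FPKM among GFP and 1.63, 1.39 and 1.08 among Tom libraries. The 3 HF-SC groups did not overlap, with Co highest and Tom lowest. The log2 difference from Co was -1.78 ± 0.16 in HF-SC Tom, where the adjusted p was 6.01e-07 but the size fell short of 2, and -0.56 ± 0.16 in HF-SC GFP (adjusted p = 0.0128). With a pseudocount of 0.1 in place of 1 the difference in HF-SC Tom was -2.31 and was called, since adding 1 shrinks differences between values this low. HF-SC Tom was also the group with 7 of 7 endothelial markers called higher than in Co, beside 4.09% of all genes called. Cd34 in the DKO* HF-SC libraries was 161 to 319 FPKM against 640 to 889 in HF-SC Co. All 8 bulge markers were lower than in Co in both fractions at an unadjusted p under 0.05 with limma, beside 25.1% of all genes in GFP and 26.2% in Tom. The list's median was -1.57 in GFP and -1.47 in Tom. The part of cell composition in the Krt75 values was not tested.
In b-KCs Krt75 stayed between 0.115 and 0.443 FPKM in all 9 libraries. These values correspond to about 8 to 29 reads each, and the log2 differences from Co were 0.18 in GFP (95% interval -0.17 to 0.52) and 0.07 in Tom (95% interval -0.27 to 0.42). The mean in GFP was 2.02 times that in Co, and with a pseudocount of 0.1, which shrinks low values less, the log2 difference in GFP was 0.59 and was not called (adjusted p = 0.182).

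Counted together, 3 of the 5 genes were called in HF-SC GFP against Co (Krt6b, Krt16 and Krt17), where 3.07% of all genes were called. The median log2 difference of all 5, called or not, was 2.95 beside -0.05 over all genes, and the medians below are given likewise. In HF-SC Tom 2 were called (Krt6b and Krt16) against 4.09% of all genes, with medians of 1.65 and -0.04. In b-KC GFP 3 were called (Krt6a, Krt6b and Krt17; 2 without mouse 814, 815, 825 or 828 and 4 without mouse 817) against 1.88% of all genes, with medians of 2.80 and -0.03. In b-KC Tom 3 were called (Krt6a, Krt6b and Krt16) against 2.77% of all genes, with medians of 4.25 and -0.02. The GFP and Tom comparisons of a cell type use the same Co libraries and the same DKO* mice, so they are not independent of each other.

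**Figure D2:**
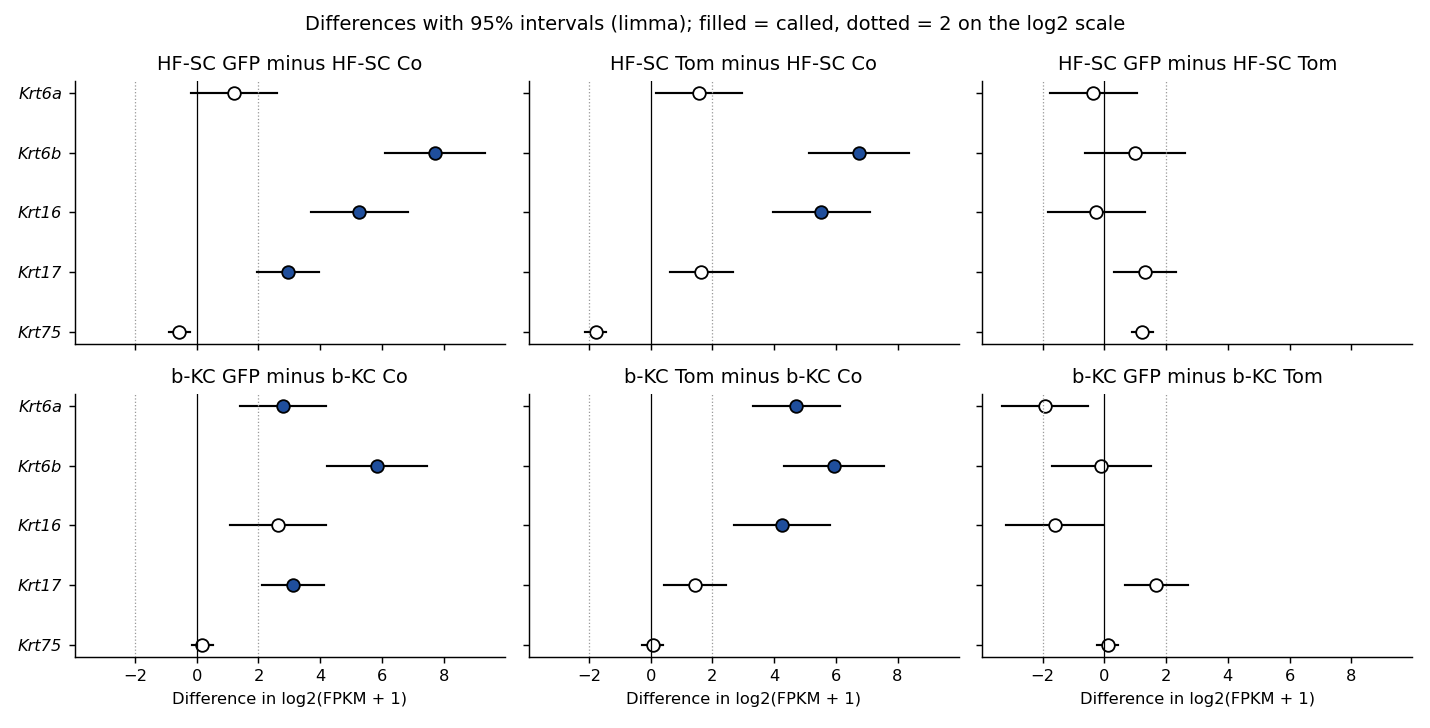
Differences in log2(FPKM + 1) with 95% intervals from limma (n = 3 libraries per group) for 6 comparisons, where filled points passed an adjusted p under 0.01 and a difference of at least 2 (dotted lines). Krt6b is filled in all 4 comparisons with Co, from 5.84 to 7.73, and no point is filled between GFP and Tom.

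Summed over Krt6a, Krt6b, Krt16 and Krt17, the FPKM was 359.7 to 422 in HF-SC Co and 351 to 657 in b-KC Co. It was 1633 to 4483 in HF-SC GFP and 1724 to 2147 in HF-SC Tom. The b-KC sums reached 1523 to 6994 in GFP and 1983 to 5326 in Tom, so no DKO* library overlapped with the Co libraries of its cell type. Taken singly, 3 of the 5 genes lay above Co without overlap in HF-SC GFP, as did 24.7% of all genes tested, and 4 in HF-SC Tom, as did 24.4%. For b-KCs these were 3 genes beside 28.0% of all genes among GFP and 4 genes beside 31.6% among Tom libraries, and Krt6a was the gene gained with Tom in both cell types.

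Comparing GFP with Tom directly asks which stress keratins differ between mutant cells and their non-mutant neighbours. None of the 5 genes was called in either cell type, where 1.98% of all genes were called in HF-SCs and 0.0863% in b-KCs. At an unadjusted p under 0.05, limma gave Krt17 and Krt75 in HF-SCs, beside 9.19% of all genes higher and 10.8% lower, and Krt6a, Krt16 and Krt17 in b-KCs, beside 6.86% and 4.68%. For Krt17 the log2 difference of GFP minus Tom was 1.30 ± 0.47 in HF-SCs (adjusted p = 0.115) and 1.68 ± 0.47 in b-KCs (adjusted p = 0.0931). Krt75 differed by 1.22 ± 0.16 in HF-SCs, with an adjusted p of 7.88e-05 and a size below the fold threshold.

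Both fractions came from the same mice, so the ratio within each mouse was also taken. Krt17 was higher in GFP than in Tom in 6 of 6 pairs, by 2.67, 3.12 and 1.81 times in HF-SCs of mice 814, 815 and 817 and by 3.70, 3.67 and 2.45 times in b-KCs. These 6 pairs came from 3 mice, each used for both cell types. The share of all genes with the same direction in every pair was not computed. The summed FPKM of 6 infundibulum and sebaceous markers was 249 to 616 in GFP and 228 to 249 in Tom for HF-SCs, and 468 to 1189 and 291 to 543 for b-KCs, and the part of such cells in the Krt17 values was not tested. Krt6a in b-KCs ran the opposite way, with 1.91, 3.21 and 8.95 times more in Tom. Krt16 in b-KCs was likewise 1.93, 3.32 and 4.56 times higher in Tom.
In HF-SCs the mice disagreed for Krt6a and Krt16. GFP over Tom was 1.29 and 1.17 for Krt6a in mice 814 and 815 and 0.314 in mouse 817. For Krt16 it was 1.47, 1.28 and 0.307. Mouse 817 was the one with GFP below Tom, and without it the log2 differences of Krt6a and Krt16 between the HF-SC fractions turned from -0.36 and -0.26 to 0.29 and 0.46. Krt6b in HF-SCs was 2.57, 2.96 and 1.01 times as high in GFP as in Tom, and 1.38, 1.02 and 0.577 times in b-KCs. The fold differences of Krt75 in HF-SCs were 3.20, 3.81 and 3.02.

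**Figure D3:**
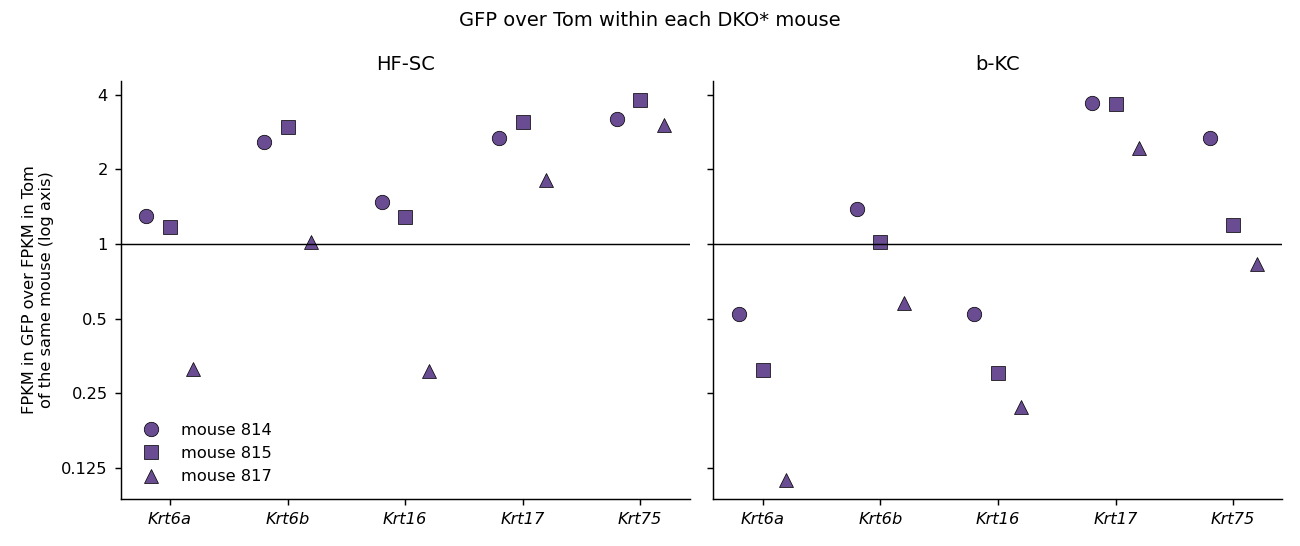
FPKM in GFP divided by FPKM in Tom of the same DKO* mouse, on a log axis with base 2, for HF-SCs (left) and b-KCs (right). Krt17 lies above 1 in all 6 pairs (1.81 to 3.70), while Krt6a (0.112 to 0.522) and Krt16 (0.219 to 0.519) lie below 1 in all 3 b-KC pairs.

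Ratios of 2 keratins within a library do not depend on how that library was scaled. They were chosen after the values of the genes were seen and are given as a description, without a test. Krt6b over Krt6a was 1.18, 1.16 and 1.15 among GFP libraries of HF-SCs and 2.07, 1.83 and 2.39 among those of b-KCs. It was 0.593, 0.456 and 0.357 among Tom libraries of HF-SCs and 0.780, 0.557 and 0.463 among those of b-KCs. Mutant libraries all held more Krt6b than Krt6a, and non-mutant libraries of the same mice all held less.
In the controls the ratio was 0.0065, 0.0018 and 0.0122 in HF-SC Co and 0.278, 0.0623 and 0.436 in b-KC Co. Krt6b was thus the minor of the pair in every Co library. Against Tom, the ratio in GFP was higher by 2.54 times in HF-SCs and by 3.56 times in b-KCs (geometric means). The ratio was higher in GFP than in Tom in 3 of 3 mice for each cell type. HF-SC Tom and b-KC Tom overlapped. Because reads from identical stretches were divided between Krt6a and Krt6b in a way that the sources used here do not give, the ratio is less certain than its narrow spread.

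Krt17 over Krt16 placed the type I chains in the same order of fractions. Among HF-SCs it was 3.07, 2.60 and 9.87 for GFP and 1.69, 1.07 and 1.67 for Tom. In b-KCs it was 5.50, 5.24 and 7.66 in GFP and 0.771, 0.430 and 0.686 in Tom. GFP exceeded Tom without overlap in both cell types, by 2.96 times in HF-SCs and 9.90 times in b-KCs, and b-KC Tom was the only group with more Krt16 than Krt17. The Co values were 16.2, 25.7 and 31.4 in HF-SCs and 3.20, 5.26 and 4.87 in b-KCs, so the GFP ratio was below Co in HF-SCs and overlapped with Co in b-KCs.
The balance of type II to type I stress chains, (Krt6a + Krt6b) over (Krt16 + Krt17), was 0.316 to 0.356 in HF-SC GFP and 0.162 to 0.225 in b-KC GFP. It was 0.429 to 0.791 in HF-SC Tom and 0.470 to 0.703 in b-KC Tom, above GFP in both cell types. In Co it was 0.502 to 0.814 in HF-SCs and 0.0472 to 0.188 in b-KCs. Type I transcripts of the set exceeded type II transcripts in all 18 libraries.

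**Figure D4:**
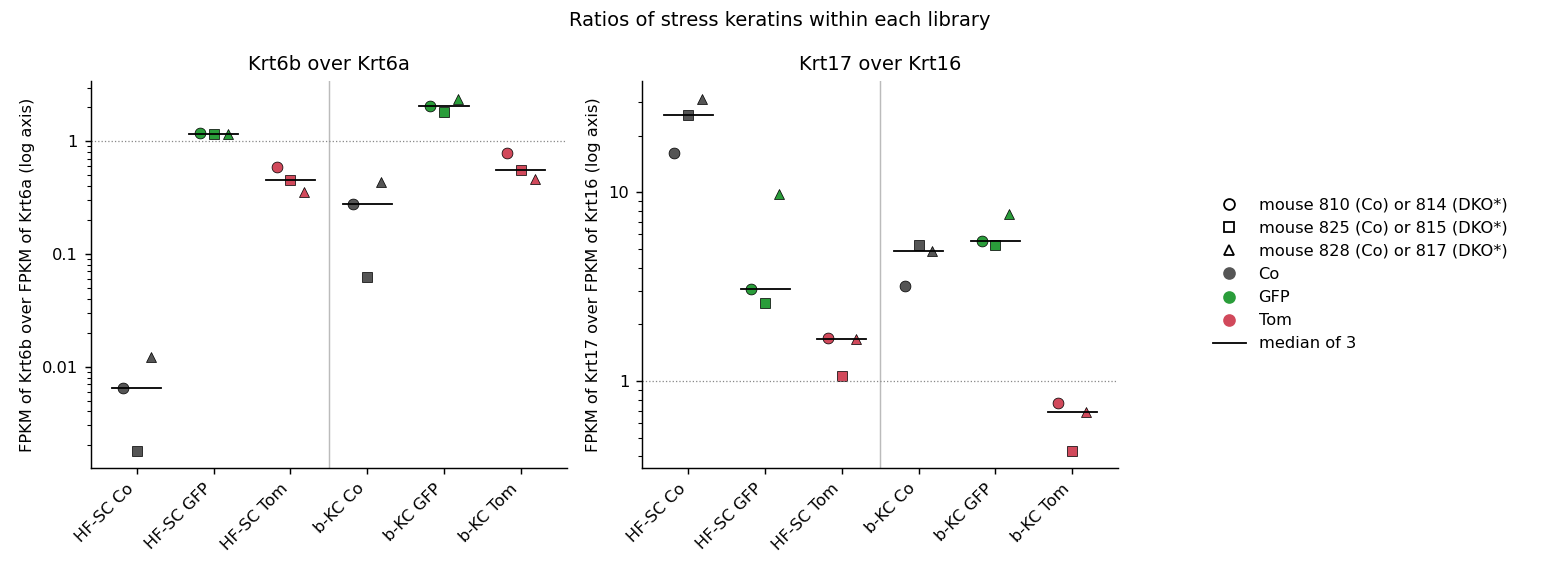
Ratio of Krt6b to Krt6a (left) and of Krt17 to Krt16 (right) within each library on log axes, with a line at the median of 3 mice and a dotted line at 1. Krt6b exceeds Krt6a only in the GFP groups (1.15 to 2.39), and Krt16 exceeds Krt17 only in b-KC Tom (0.430 to 0.771).

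The change in HF-SCs was compared with that in b-KCs by an interaction term. None of the 5 genes was called for GFP, where 0.863% of all genes were, or for Tom, where 1.98% were, while limma gave Krt16 and Krt75 for GFP and Krt6a and Krt75 for Tom at an unadjusted p under 0.05, as it did 28.0% and 29.0% of all genes. For Krt16 the change to GFP was larger in HF-SCs by 2.64 ± 1.04 on the log2 scale (adjusted p = 0.109), and without mouse 817 this difference was 2.75 and was called (adjusted p = 7.89e-04). For Krt6a the change to Tom was smaller in HF-SCs by -3.15 ± 0.93 (adjusted p = 0.0309). It was called without mouse 817 (-3.58, adjusted p = 0.00159), and a random block for the mouse also gave a call (adjusted p = 0.00803). For Krt75 the change to Tom differed by -1.85 ± 0.23 (adjusted p = 8.08e-05), below the fold threshold, and with a pseudocount of 0.1 it was -2.55 and was called (adjusted p = 0.00279).
Between HF-SC GFP and b-KC GFP only Krt75 was called (2.07 ± 0.16, adjusted p = 2.96e-07, or 3.57 with a pseudocount of 0.1), 1 of 5 beside 1.22% of all genes. Between HF-SC Tom and b-KC Tom none was called beside 3.92% of all genes, and at an unadjusted p under 0.05 limma gave only Krt75 (0.96 ± 0.16, adjusted p = 2.38e-04), beside 56.7% of all genes. The mean FPKM of Krt75 was 6.24 times as high in HF-SC Tom, and with a pseudocount of 0.1 the log2 difference was 2.26 and was called (adjusted p = 9.68e-05). The intervals remained wide, for example -1.75 to 1.38 for Krt16 and -1.72 to 1.51 for Krt6b between the GFP groups, so differences of several fold are within them.

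The levels ordered the groups differently for each gene. Upward by median, Krt6a ran from b-KC Co through HF-SC Co, b-KC GFP, HF-SC Tom and HF-SC GFP to b-KC Tom, and neighbours overlapped except b-KC Co with HF-SC Co and HF-SC GFP with b-KC Tom. Krt6b ran from HF-SC Co and b-KC Co, which overlapped, through HF-SC Tom, HF-SC GFP and b-KC Tom to b-KC GFP, and the only gap without overlap was between b-KC Co and HF-SC Tom. Krt16 ran from HF-SC Co, b-KC Co, HF-SC Tom, HF-SC GFP and b-KC GFP to b-KC Tom, with gaps between the first 3 of these. Krt17 ran from HF-SC Co, b-KC Co, HF-SC Tom, b-KC Tom and HF-SC GFP to b-KC GFP, also with gaps between the first 3. Krt75 had its lowest median in b-KC Tom and its highest in HF-SC Co, with the 3 b-KC groups overlapping and the 3 HF-SC groups apart.

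Across the 18 libraries, Pearson's r of log2(FPKM + 1) was 0.93 between Krt6b and Krt16, 0.87 between Krt6b and Krt17, 0.76 between Krt16 and Krt17 and 0.71 between Krt6a and Krt6b. Krt75 had r from -0.48 to 0.13 with the other members. These values describe 6 groups from 6 mice, and the libraries of a mouse are not independent. The genes most like Krt6b were Stfa1, which encodes a stefin A protease inhibitor (r = 0.99), 2610528A11Rik, Tmigd1 and Rab31. Those most like Krt16 were Twf1 (r = 0.98), the cornified envelope gene Sprr1b, Dbf4 and Fabp5, which encodes the epidermal fatty acid binding protein. For Krt17 they were Pstpip1 (r = 0.99), Fbp1, Htr5b and Serpinb3c, for Krt6a Tspan3 (r = 0.94), Fhl2, Casp6 and Ptpla, and for Krt75 Dnajc28 (r = 0.98), Camk4, Scarf2 and Hoxa2.

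Other keratins were read from fixed lists. Of the suprabasal keratins, 9 of 11 were tested. Krt1, the early differentiation keratin, rose by 2.84 on the log2 scale in HF-SC GFP and by 2.27 in HF-SC Tom, and Krt24 fell there by 3.20 and 2.77. In HF-SC Tom Krt77 (-2.96) and Krt80 (-2.13) were also called lower, and the list's median in HF-SCs was -0.26 for GFP and -1.16 for Tom. In b-KCs 3 suprabasal keratins were called lower in GFP, Krt24 (-4.12), Krt77 (-3.35) and Krt78 (-2.80), beside 1.88% of all genes called in either direction. Among Tom libraries 6 such keratins, including Krt77 (-6.37), Krt2 (-4.83) and Krt24 (-4.67), were called lower, beside 2.77% of all genes called. None was called higher in b-KCs with limma (0 at an unadjusted p under 0.05, where 8 were lower in each fraction, beside 25.9% of all genes in GFP and 27.3% in Tom), and the list's median was -1.86 in GFP and -2.97 in Tom.
The summed FPKM of 7 suprabasal markers was 6988 to 8692 in b-KC Co, 4917 to 6999 in b-KC GFP and 3889 to 6998 in b-KC Tom. The markers within it differed, since against b-KC Co the cornified envelope gene Lor was called lower in GFP (-2.48) and Tom (-3.41), while Ivl had uncalled log2 differences of 0.55 and -0.70. In HF-SCs the sum was 873 to 1240 in Co, 1748 to 3615 in GFP and 1671 to 2131 in Tom. The part of suprabasal cells in the stress keratin values was not tested in either cell type. Of the basal and simple keratins, 4 of 7 were tested and only Krt15, a keratin of bulge cells, was called in b-KCs, with log2 differences of -2.21 in GFP and -3.44 in Tom, and none was called in HF-SCs (3 at an unadjusted p under 0.05 in each fraction, beside 47.6% of all genes in GFP and 51.6% in Tom). With values of 0 treated as missing, Krt14 rested on mouse 815 alone in b-KC Tom and on mice 814 and 815 in b-KC GFP. Krt15 rested on mice 810 and 825 in HF-SC Co. Krt5 had uncalled log2 differences from Co of -0.50 and -0.30 in the GFP and Tom fractions of HF-SCs and of -0.54 and 0.06 in those of b-KCs.

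Genes known to induce or regulate stress keratins were read from a list of 27, of which 24 were tested. In HF-SC GFP 5 were called higher, namely Il1a (5.18), Areg (4.01), Tnf (2.91), Tgfa (2.71) and Il1b (2.65), which encode cytokines and ligands of the EGF receptor. In HF-SC Tom 4 were called higher, Il1b (2.83), Il6 (2.72), Areg (2.59) and Tnf (2.04). In b-KC GFP these were Il1a (2.85) and Areg (2.17), and in b-KC Tom none was called higher (8 higher and 9 lower at an unadjusted p under 0.05 with limma, beside 26.1% and 27.3% of all genes) and Fos, an AP-1 gene, fell by 2.19. The list's median was 0.44, 0.65, -0.11 and -0.06 in the same order. The shares of all genes called, counting both directions, were 3.07%, 4.09%, 1.88% and 2.77%. Il1a had 38.8 to 89.8 FPKM in HF-SC GFP, 5.59 to 6.46 in HF-SC Tom and 0.603 to 0.964 in HF-SC Co, with no overlap between the groups. In b-KCs it had 11.6 to 40.6 FPKM in GFP, 5.73 to 7.58 in Tom and 2.33 to 3.30 in Co, again without overlap.
Between the fractions of HF-SCs, Il1a was called higher in GFP (3.23) and Il6 higher in Tom (-4.41), beside 1.98% of all genes called. No gene of the list was called between the fractions of b-KCs, where limma gave 6 higher and 3 lower in GFP at an unadjusted p under 0.05, beside 6.86% and 4.68% of all genes.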

How the data were processed

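RNA was measured in 18 libraries of sorted mouse ear skin cells, made with SMART-Seq v4 and Nextera XT and read as 51-base single ends without strand information. The authors aligned the reads to the NCBI37/mm9 genome with TopHat 2.0.10 and Bowtie 1.0.0, and the deposited table gives their FPKM from Cufflinks 2.2.1, 1 value for each gene in each library. Reads with several matches were kept by the authors, and how they were shared among genes is not given in the sources used here.

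Groups follow the sample labels, 3 mice in each of 6 groups, and no sample was left out. Genes reaching 1 FPKM in 3 or more of 18 libraries were tested, 12751 of 23951. The deposited FPKM values were taken as log2(FPKM + 1), which understates changes of low genes, and fitted with limma 3.58.1 in R 4.3.3 (1 mean per group, eBayes with a trend, Benjamini-Hochberg adjustment over all genes within a comparison). A value of exactly 0 was treated as missing where another library of the group had at least 10 FPKM, which touched 23 values of 8 genes and none of the 5 keratins. The fit was tested on simulated data for HF-SC GFP against Co, and it called 199 of 200 genes given a log2 change of 3 and 0 of the 12551 others. The simulated libraries were independent, without a mouse effect, so this checks the code and does not measure the error rate in these data.

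The same mouse gave several populations, as the mouse numbers in the labels state, and deviations from group means of same-mouse libraries correlated across genes with r from 0.08 to 0.70. A mouse block was among the alternatives, beside the pseudocount, filter, threshold, scaling, samples fitted, trend and zeros. Depth was taken from the steps of low FPKM values (76.9% to 81.3% within 0.1 of a whole read), and these read numbers come without molecular identifiers and cover counting error only. Sequences and coordinates are from the NCBIM37 genome and GENCODE vM1, aligned with Biopython 1.88.

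The 5 genes, the gene lists and the tests were chosen with earlier results of these data known. Genes named beside the 5 are those called within fixed lists and the 4 most alike by Pearson's r. Jun and Junb were taken as a check, and Krt42 as a neighbour of Krt17 with a related sequence. Krt5, Krt14, Ivl, Cd34 and Ptprc were added after their values were seen.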

Additional observations from a re-analysis of the deposited data

Results flagged for a closer look

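For 2 of the keratins the change from Co to a DKO* population differed between the cell types at an adjusted p under 0.05 (limma interaction term, 12751 genes), where 12.6% of all genes did for GFP and 15.8% for Tom. Krt6a changed less in HF-SC Tom than in b-KC Tom, by -3.15 ± 0.93 on the log2 scale (adjusted p = 0.0309), and control HF-SCs started from 119 to 188 FPKM against 14.9 to 81.3 in control b-KCs. For Krt75 the change in HF-SCs minus that in b-KCs was -1.85 ± 0.23 for Tom (adjusted p = 8.08e-05) and -0.74 ± 0.23 for GFP (adjusted p = 0.0468), and with a pseudocount of 0.1 the latter was -1.24 (adjusted p = 0.118). In GFP its mean FPKM was 1.56 times lower than Co in HF-SCs and 2.02 times higher in b-KCs, and its b-KC values rest on about 8 to 29 reads per library. The differences kept their direction without any 1 of the 6 mice, ranging from -3.71 to -2.70 for Krt6a, from -1.97 to -1.77 for Krt75 in Tom and from -0.81 to -0.65 for Krt75 in GFP.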

How the results depend on the processing

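Of 850 log2 differences of the 5 genes recomputed under alternatives, 808 kept direction and call. At an adjusted p under 0.05 with no fold minimum, the genes called were 4 instead of 2 for HF-SC Tom against Co, 1 instead of 0 for HF-SC GFP against Tom, for HF-SC Tom against b-KC Tom and for the GFP interaction, and 2 instead of 0 for the Tom interaction. Of all genes tested, that threshold called 44.4%, 8.65%, 49.4%, 12.6% and 15.8% in these comparisons, in the same order. It also added Krt75 in HF-SC GFP, Krt16 in b-KC GFP and Krt17 in b-KC Tom, each against Co, and Krt6b between the control cell types. There it called 38.5%, 41.6%, 46.0% and 52.0% of all genes. A pseudocount of 0.1 gave 1 gene, Krt75, for HF-SC Tom against b-KC Tom and for the Tom interaction. It also added Krt75 for HF-SC Tom against Co (3 instead of 2). No filter on low values gave 1 instead of 3 between the control cell types and 2 instead of 3 for b-KC GFP against Co. Leaving out 1 mouse gave 1 to 3 between the control cell types (1 without mouse 825 or 828), 2 to 4 for b-KC GFP against Co, and 0 to 1 for each interaction (1 without mouse 817). With the mouse as a random block, 1 gene, Krt6a, was called for the Tom interaction and Krt16 was called in b-KC GFP (log2 difference 2.63), and no other call changed under a block. Directions that turned were all of uncalled differences, here with their range when 1 mouse was left out. Without mouse 817 they were Krt6a (-0.72 to 0.29) and Krt16 (-0.67 to 0.46) between the HF-SC fractions and Krt6b between the b-KC fractions (-0.38 to 0.25). Krt6b between the GFP groups turned without mouse 814 (-0.40 to 0.092), Krt75 in b-KC Tom without mouse 815 (-0.018 to 0.12), Krt17 in the GFP interaction without mouse 815 (-0.49 to 0.023) and Krt17 in the Tom interaction without mouse 810 (-0.0052) or 817 (-0.14 to 0.48). The cause was not tested. In b-KCs 3 reads of Krt75 are worth 0.0396 to 0.0467 FPKM, and the effect of depth on its differences was not tested.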

Other observations

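Krt42, the neighbour of Krt17 in the type I cluster and identical to it at 79.8% of aligned coding bases, had 0.663 to 2.15 FPKM in HF-SC Co, 3.92 to 15.9 in HF-SC GFP and 4.41 to 11.5 in HF-SC Tom. Krt17 was 53.2 to 999 times as high as Krt42 in the 18 libraries, and 0.2% of its 51-base windows occurred in Krt42.

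Of the infundibulum and inner root sheath keratins, 3 of 8 were tested, and Krt79, a keratin of the infundibulum, fell by 3.09 in b-KC Tom against Co and was higher by 2.17 in the GFP than in the Tom fraction of HF-SCs. Of 13 hair shaft keratins only Krt32 was tested, and it was called lower in b-KC Tom (-2.12). None of the 10 keratin-binding and cytolinker genes was called in the 4 comparisons with Co, where 2 and 4 in the GFP and Tom fractions of HF-SCs and 9 and 8 in those of b-KCs were lower at an unadjusted p under 0.05 with limma, beside 25.1% to 27.3% of all genes. Of 6 proliferation markers, 5 were called higher in HF-SC GFP and 6 in HF-SC Tom, beside 3.07% and 4.09% of all genes called in either direction. None was called in b-KCs, where limma gave 4 higher in GFP and 6 in Tom at an unadjusted p under 0.05, beside 24.5% and 26.1% of all genes.

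A promoter window of 300 bases was given by RefSeq (GRCm38.p6) for 1 of the 5 genes, Krt75. It held no match on either strand to AP-1 (TGANTCA, in 7.81% of 32851 mouse promoter windows), the Nrf2 element (TGACNNNGC, 12.4%), the Stat element (TTCNNNGAA, 8.3%), NF-kB (0.411%) or the TATA box (TATAAA, 13.6%).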
